A study of Mus musculus with 12 samples.

Results

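The regions described here are 1391 CTCF-bound sites of mouse liver whose peak score ranked lower after 24 h of starvation than in the fed state. Merging all peaks of the 6 deposited lists that share at least 1 bp gave 76061 sites, and 22131 of these (29.1%) had a peak in every list and are called shared sites. In each list the shared sites were ranked by their best peak score as a percentile from 0 to 100. A member is a shared site whose highest percentile among the 3 starved libraries lay below its lowest percentile among the 3 fed libraries, with a mean fed minus mean starved percentile of at least 10 points. Differences are given throughout as fed minus starved, so a positive value means a lower rank after starvation. The rule was met by 6.29% of the shared sites, and its mirror image (higher after starvation) by 1478 sites, or 6.68%. Because these percentiles chose the members, they are described below without a test, and nothing is read from those shares.

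The libraries came from chromatin immunoprecipitation and sequencing (ChIP-seq) with a Diagenode antibody against CTCF, on livers of wild-type male C57BL6/Ncrl mice aged 3 to 4 months. The starved group (3 libraries) had gone 24 h without food before collection at ZT13, where ZT is the hour of the daily light cycle. The fed group (3 libraries) had normal chow at all times and was collected at ZT16. Starvation and collection time cannot be told apart in this design, no label tells whether each library was made from its own mouse, and the inputs (3 starved, 3 fed) were not analysed here. The starved lists held 30752, 23926 and 29866 peaks and the fed lists 56103, 49030 and 74950 peaks, and read depth is not known. The nature of the score is not stated in the labels, and the rule uses it only as a rank within 1 list. A percentile is relative to the other shared sites of a list, so a site also ranks lower where other sites rise. A lower rank therefore need not mean less binding. Whole liver holds several cell types, so even where binding is lower, fewer cells carrying a bound site and weaker binding per cell cannot be told apart.

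CTCF is a zinc finger protein that recognises a long DNA motif and, together with the ring-shaped cohesin complex, anchors chromatin loops and marks the borders of chromatin domains. It also acts as an insulator between enhancers and promoters, as at the imprinted region of H19. Many of its sites are bound in most cell types, and weaker sites differ more often between tissues.

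The sequences below show the motif that CTCF reads where a member covers a gene start, since promoter sequence (RefSeq, build GRCm38.p6, which is the same build as the mm10 of the peak lists) was the sequence used here. Of the 1391 members, 92 covered at least 150 bases of a 300-base promoter window running from 250 bases before to 50 bases after an annotated start. The capitals mark the match to the CTCF core consensus on either strand, and all 4 windows read 5′ to 3′ along the gene on the plus strand. Pcp4 (chr16:96467356-96467655), Mtus2 (chr5:147957070-147957369) and the predicted gene Gm39902 (chr2:106955531-106955830) are shown because theirs were the 3 member windows with a full match. The fourth, at Tesmin (chr19:3389128-3389427), is the window with the largest rank difference among those with a match that is 1 letter off.
Pcp4: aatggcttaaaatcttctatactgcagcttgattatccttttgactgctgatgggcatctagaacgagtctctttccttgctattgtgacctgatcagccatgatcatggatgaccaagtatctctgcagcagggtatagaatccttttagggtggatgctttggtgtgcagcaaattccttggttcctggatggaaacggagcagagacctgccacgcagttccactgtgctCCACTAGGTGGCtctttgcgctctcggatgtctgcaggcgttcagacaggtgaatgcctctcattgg
Mtus2: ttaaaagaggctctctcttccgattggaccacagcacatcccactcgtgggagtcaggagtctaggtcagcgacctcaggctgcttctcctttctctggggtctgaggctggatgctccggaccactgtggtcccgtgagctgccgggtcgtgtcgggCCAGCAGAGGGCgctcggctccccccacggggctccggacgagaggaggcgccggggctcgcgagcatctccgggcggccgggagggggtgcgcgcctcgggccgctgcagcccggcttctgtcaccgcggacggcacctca
Gm39902: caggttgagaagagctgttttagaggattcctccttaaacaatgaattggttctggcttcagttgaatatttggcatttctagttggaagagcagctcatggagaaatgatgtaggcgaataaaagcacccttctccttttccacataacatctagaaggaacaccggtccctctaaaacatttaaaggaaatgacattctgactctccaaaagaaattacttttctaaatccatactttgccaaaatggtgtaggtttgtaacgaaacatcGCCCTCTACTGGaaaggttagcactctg
Tesmin: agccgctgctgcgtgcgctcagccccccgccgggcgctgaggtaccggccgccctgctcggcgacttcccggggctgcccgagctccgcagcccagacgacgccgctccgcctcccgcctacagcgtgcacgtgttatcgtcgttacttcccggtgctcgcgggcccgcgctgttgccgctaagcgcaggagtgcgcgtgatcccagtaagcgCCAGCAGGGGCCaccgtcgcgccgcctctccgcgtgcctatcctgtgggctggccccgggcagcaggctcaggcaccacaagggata

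The site over the start of Pcp4, which encodes a small calmodulin-binding protein, stood at percentiles of 78.7, 63.5 and 79.3 in the starved and 89.0, 99.6 and 97.7 in the fed libraries. Its match begins at -17 from the annotated start. At Mtus2, a gene for a microtubule-associated protein, the percentiles were 63.5, 45.3 and 65.4 starved and 68.8, 81.4 and 81.5 fed, with the match at -92. Most of the starved values of both sites still lay in the upper part of the shared sites. The Gm39902 site had 26.4, 39.6 and 40.3 in starved and 55.2, 61.8 and 57.4 in fed libraries, and its match lies at 22 bases after the start on the minus strand. In the window of Tesmin, a gene named for its expression in the testis, the match begins at -37, and the values of that site are given with the other gene starts.

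A full match was found in the promoter windows of 3 of 92 members (3.26%, exact 95% binomial interval 0.678 to 9.23), of 5 of 83 sites that ranked higher after starvation (6.02%, 1.98 to 13.5) and of 120 of 1625 other shared sites (7.38%, 6.16 to 8.77). These intervals cover counting error only, sites are not replicates of a condition, and differences between such shares were not tested. Of all 32817 promoter windows of that length, 183 (0.558%) held a full match, and 1421 (4.33%) held one with at most 1 letter off. These count windows, whereas the class shares count sites, some of which cover several windows. Counted by window, a full match was in 2.97% for members, 5.43% for the higher class and 6.92% for the others. With at most 1 letter off it was in 12.9, 21.7 and 26.1%. With 1 letter off allowed, a setting added after the data were seen, the shares were 13 of 92 members (14.1%, 7.74 to 23.0), 20 of 83 higher-ranked sites (24.1%, 15.4 to 34.7) and 472 of 1625 others (29.0%, 26.8 to 31.3). The interval of the members lies below that of the other shared sites and overlaps that of the higher-ranked sites. In each class the share with a match was higher at sites with a higher mean percentile over the 6 libraries, so the classes were also read within rank. Below the 50th percentile the shares were 3 of 44 members (6.82%, 1.43 to 18.7), 5 of 41 higher-ranked sites (12.2%) and 112 of 618 others (18.1%, 15.2 to 21.4). From the 50th percentile up they were 10 of 48 members (20.8%, 10.5 to 35.0), 15 of 42 higher-ranked sites (35.7%) and 360 of 1007 others (35.7%, 32.8 to 38.8). Within each rank range the members had the lowest share of the 3 classes, with intervals that overlap those of the others. The windows of the members had a median GC content of 61.33% and 20 CpG, against 62.33% and 22 for the other shared sites and 52.67% and 7 for all promoters. A match says only that these letters are present, and no match only that they are not in that window.

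The members spanned nearly the whole range of ranks. Their percentiles had medians of 34.61, 35.1 and 36.83 in the starved libraries, against 59.38, 57.8 and 59.88 in the fed libraries. The difference ran from 10.02 to 51.45 points with a median of 18.82 and quartiles of 14.68 and 24.24. Over all shared sites the median difference was -0.38 with quartiles of -6.90 and 6.77, so the members form the right-hand part of a single broad distribution, as the plot of rank differences shows. A difference of at least 20 points was found at 605 members, of at least 30 at 142 and of at least 40 at 22. The space between the groups was narrower than the difference of the means: the lowest fed percentile exceeded the highest starved one by a median of 5.063 points, and by at least 10 points at 321 members. Within a group the 3 libraries of a member had a median SD of 7.013 points (starved) and 6.276 points (fed), against 8.71 and 8.405 over all shared sites. The rule favours sites with little spread, so those lower values are part of the choice.

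**Figure D1:**
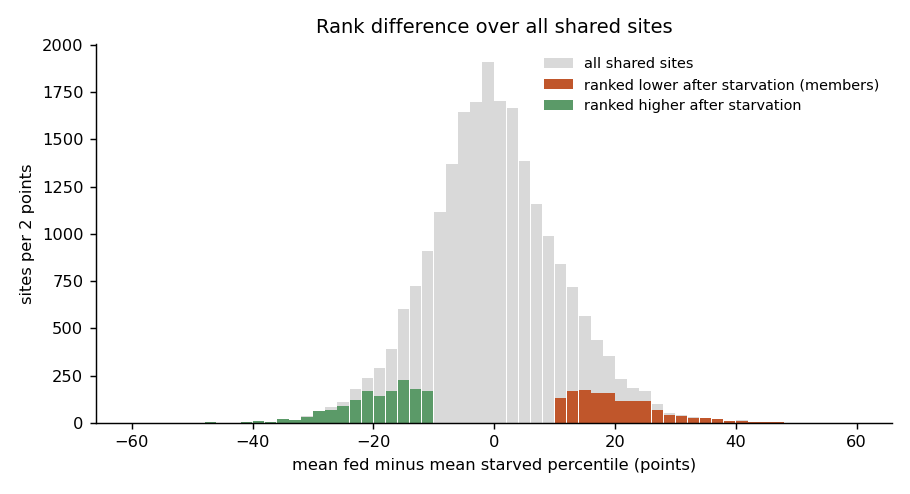
Number of sites (y axis, per 2 points) by mean fed minus mean starved percentile (x axis, points), for all 22131 shared sites, the 1391 members and the 1478 sites that ranked higher after starvation. The members start at 10 points. They fill a small part of the bar that starts there (131 of 840 sites) and all of the bar that starts at 36 points (21 of 21). Of the 3806 shared sites with a difference of at least 10, 2415 had overlapping groups.

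Most shared sites with a mean difference of at least 10 points were not members, but the share of members rose with the difference. Per 2 points it was 131 of 840 sites from 10 points, 117 of 234 from 20 and 37 of 42 from 30. Of 3806 shared sites with a difference of at least 10, 2415 had a starved percentile at or above a fed one. Without the limit of 10 points, 1632 sites (7.37%) had non-overlapping groups with the starved ones lower, and 1883 (8.51%) with the starved ones higher. The 241 sites that the limit removed from the lower side had differences under 10. The balance of both directions depends on the scale: lower sites were 48.5% of those called by percentile among shared sites, 36.2% by log2 score scaled per library (1272 lower, 2243 higher) and 100% by percentile within the whole list (14026 lower, 2 higher). Members were found at nearly every fed rank: 52 of 2285 sites (2.28%) with a mean fed percentile of 10 to 20 were members, and the share in each band of 10 points from there up lay between 6.82 and 8.08%, the last for 121 of 1498 sites above the 90th percentile. Below the 10th fed percentile there was no member among 1872 sites, where a fall of 10 points cannot occur. In the starved libraries, 161 members had a mean percentile under 10 and 449 one of at least 50. By the rule, each member has a called peak in all 6 lists, so sites without a starved peak are outside this account.

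The scores behind the ranks are the authors' own peak values and differ in scale between lists. The median score of the members was 32.72, 19.56 and 33.91 in the starved lists, where the median over shared sites was 46.67, 27.68 and 45.36. In the fed lists it was 144.9, 137.7 and 213.0, where the median over shared sites was 130.3, 123.9 and 192.1. The member medians lay below the shared-site median in each starved list and above it in each fed list, as the rule leads to. At the members, width moved with the score. The best peak of a member had a median width of 378, 241 and 316 bp in the starved lists, against 416, 254 and 333 bp at the other shared sites, and of 734, 665 and 824 bp in the fed lists, against 701, 618 and 787 bp. The higher class did not do so throughout. In starved 2 and starved 3 its median scores of 31.03 and 48.07 exceeded those over shared sites, but its widths of 247 and 323 bp were below those of the others. The merged member sites had a median width of 870 bp and covered 1269 kb in all, and 1240 of them (89.1%) were made of exactly 1 peak from each library.

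The same measure in libraries whose ranks were not used in the choice gave a much smaller difference. The left-out libraries were not fully independent of the choice, since every site ranked had a peak in every list. The sets chosen in this way are also larger than the 1391 members and are not the same sites. For each of the 9 combinations of 1 starved and 1 fed library, sites were chosen with the same rule on the other 4 libraries and then read in the left-out pair, an analysis added after the data were seen. Each choice gave 2968 to 3305 sites, with a median difference of 17.65 to 18.75 points in the 4 libraries that chose them. In the left-out pair the median difference was 3.188 to 5.751 points, with median percentiles of 45.88 to 47.43 in the starved and 50.61 to 53.51 in the fed library. The starved value lay below the fed value at 57.1 to 64.8% of the chosen sites, against 48.9 to 50% of all shared sites in the same pair. A difference of at least 10 points recurred at 35.2 to 40% of the chosen sites, against 23.8 to 26.5% of all shared sites. All 9 pairs had the same direction, and the lowest share came from the pair of starved 2 and fed 2. The mirror image behaved alike, with the starved value above the fed one at 59.1 to 64.1% of 2998 to 3350 sites chosen as higher. The 9 pairs share libraries and are not independent, so no test was made. The libraries as wholes were similar in rank within and between groups: Spearman's rho over the 22131 shared sites was 0.826 to 0.874 within the starved group, 0.811 to 0.859 between starved and fed libraries and 0.855 to 0.87 within the fed group.

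**Figure D2:**
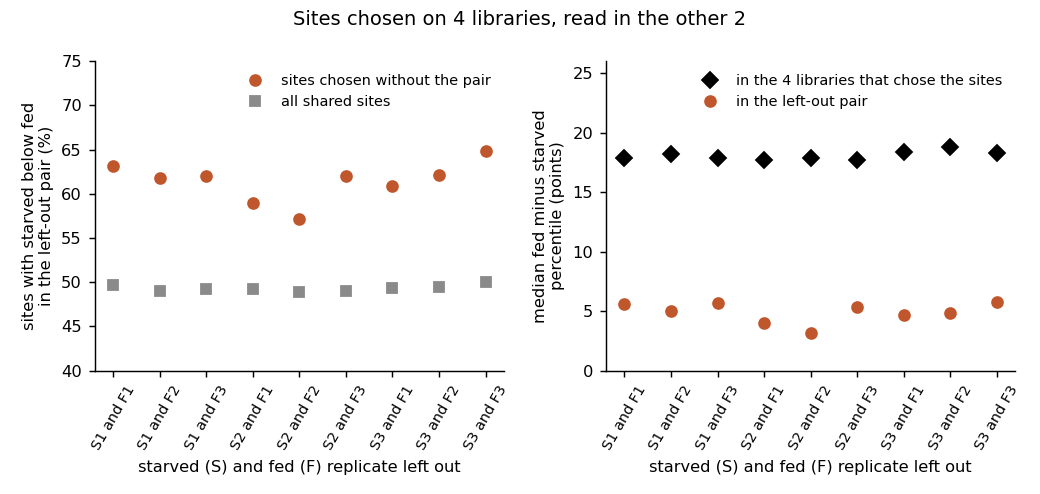
Left, percentage of sites (y axis) with a starved percentile below the fed one in each left-out pair of 1 starved and 1 fed library (x axis), for the sites chosen on the other 4 libraries (57.1 to 64.8%) and for all shared sites (48.9 to 50%). Right, median fed minus starved percentile (y axis, points) of the chosen sites in the 4 libraries that chose them (17.65 to 18.75) and in the left-out pair (3.188 to 5.751).

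The 10 members with the largest differences lay at 42.6 to 51.5 points. The largest lay inside Rbfox1 (chr16:6502116-6502955), a gene for an RNA-binding splicing regulator of neurons, 567 kb from its start. Its percentiles were 11.4, 18.0 and 7.9 in starved and 54.1, 64.4 and 73.2 in fed libraries, or 12.4 ± 5.1 against 63.9 ± 9.5 (SD, n = 3 each, as for all such values below), a difference of 51.5 points. The authors' scores there were 15.1, 11.7 and 13.2 in the starved lists and 136, 150 and 240 in the fed lists. Among the shared sites it thus ranked under the 20th percentile in every starved library and above the 50th in every fed library. A site inside Ntrk3 (chr7:78568546-78569683), which encodes the receptor for neurotrophin-3, had percentiles of 3.6, 14.8 and 10.8 starved and 57.8, 63.8 and 56.5 fed, a difference of 49.6. The fed values of Ntrk3 spanned 7.3 points and the starved ones 11.2.

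Next came sites beyond the ends of genes. One 17.6 kb downstream of Magi1 (chr6:93657384-93658232), a scaffold gene of cell junctions, had percentiles of 33.5, 42.6 and 31.2 starved and 90.9, 73.7 and 86.0 fed, a difference of 47.8. One 46.1 kb downstream of Nrp1 (chr8:128551158-128552034), which encodes a co-receptor for semaphorins and vascular growth factors, had 24.2, 44.7 and 23.2 starved and 62.9, 88.6 and 81.6 fed, a difference of 47.0. A site in a region of chromosome 18 with no protein-coding gene within 100 kb (chr18:81796727-81797624) had 31.1, 17.8 and 53.3 starved and 82.8, 73.5 and 82.5 fed, a difference of 45.5. The groups were separated by 31.1 points at Magi1, 18.2 at Nrp1 and 20.1 at the chromosome 18 site, and the starved libraries spread over 35.5 points at the last of these. A site 54.8 kb downstream of Cdh26, a cadherin gene (chr2:178541717-178542539), had 37.9, 38.8 and 25.6 starved and 74.4, 80.4 and 83.0 fed, a difference of 45.2. Upstream of Anxa11 by 9.76 kb (chr14:25831853-25832879), at a gene for a calcium-dependent membrane-binding annexin, the values were 27, 39.6 and 63.0 starved and 80.6, 90.3 and 88.7 fed, a difference of 43.3. Upstream of Tmem163 by 1.94 kb (chr1:127679651-127680261), a gene for a zinc transporter, they were 25, 42.8 and 35.1 starved and 70.7, 79.0 and 81.1 fed, a difference of 42.7. The starved values spanned 13.1 points at Cdh26 and 17.8 at Tmem163, whereas those of the Anxa11 site spanned 36.0 and reached 63.0 in starved 3. The last of these 10, with no gene within 100 kb (chr7:138084055-138084672), had the widest fed values of the 10, at 10.1, 36.5 and 38.3 starved and 89.6, 53.4 and 69.7 fed, a difference of 42.6.

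**Figure D3:**
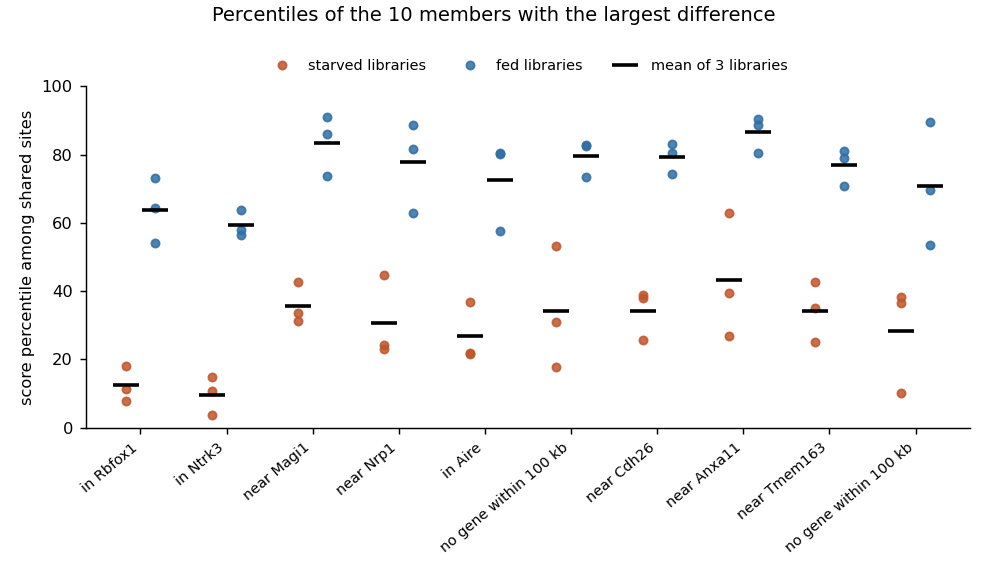
Score percentile among shared sites (y axis, 0 to 100) in each of the 3 starved and 3 fed libraries for the 10 members with the largest difference, ordered from the largest, with bars at the mean of each group. The starved and fed points of a site do not overlap, as the rule requires, and the fed points are widest apart at the last site, from 53.4 to 89.6.

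At gene starts the largest difference belonged to Aire, the thymic regulator that exposes developing T cells to self antigens. The site over its start (chr10:78043031-78044189) had percentiles of 21.9, 21.6 and 36.8 in starved and 57.5, 80.2 and 80.4 in fed libraries, or 26.8 ± 8.7 against 72.7 ± 13.2, a difference of 45.9. Of the 10 sites with the largest differences, this was the only one over an annotated start. Behind it came Cpne2, a copine gene for calcium-dependent membrane binding (chr8:94532869-94533733), with 25.3, 23.5 and 10.3 starved and 52.7, 39.0 and 72.2 fed, a difference of 35.0. At Hcn3, a gene for a pacemaker ion channel (chr3:89159403-89160645), the values were 64.4, 46.8 and 34.0 starved and 70.5, 94.3 and 82.8 fed, a difference of 34.2 that was 14.44 when the mean instead of the best peak score of a site was ranked. At Zfp212, a zinc finger gene (chr6:47920035-47921067), they were 10.2, 36.8 and 28.8 starved and 57.7, 52.4 and 63.1 fed, a difference of 32.5. Among these, Hcn3 had the groups closest to each other, since starved 1 and fed 1 differed by 6.1 points. The annotation used here gives no strand for Hcn3, so its site lies at an end of the gene that may not be the start. Mesp1, a transcription factor gene of early mesoderm (chr7:79792316-79793499), had 49.0, 30.1 and 51.7 starved and 89.3, 64.5 and 74.2 fed, a difference of 32.4. Msl3l2 (chr10:56106484-56107264) had 25.5, 39.7 and 59.8 starved and 78.8, 63.6 and 78.9 fed, a difference of 32.1.

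The remaining sites at gene starts, or at a gene end where no strand is given, had differences near 30 points. In some of them 1 library carried much of it. Tesmin (chr19:3388706-3389715) had 62.8, 26.2 and 64.4 starved and 77.8, 76.1 and 90.7 fed, a difference of 30.4 that was 15.17 without starved 2. This site also lies 3.48 kb beyond the downstream end of Cpt1a, which controls the entry of long-chain fatty acids into mitochondria, and 65.9 kb from the start of that gene. Zbed3, a zinc finger gene (chr13:95324052-95325819), had 22.7, 35.3 and 37.4 starved and 65.9, 47.4 and 72.7 fed, a difference of 30.2 that was 10.55 by the mean peak score. Galnt12, a gene of mucin-type glycosylation (chr4:47121591-47122697), had 55.2, 28.2 and 50.1 starved and 67.4, 82.4 and 73.8 fed, a difference of 30 that was 18.54 without starved 2. Galnt12 has no strand in the annotation, so its site lies at an end of the gene that may not be the start. Rps15, a gene of the small ribosomal subunit (chr10:80291909-80292888), had 24.1, 58.5 and 55.3 starved and 78.3, 73.0 and 75 fed, a difference of 29.5 that was 18.11 without starved 1. Starved 2 was the lowest library at Tesmin and Galnt12, and starved 1 at Rps15.

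Members near genes of fasting metabolism, liver function and chromatin were counted by list. The 18 gene lists, with 352 genes of which 350 matched the annotation, had 354 shared sites within 5 kb, and 16 of these (4.52%) were members, beside 6.29% over all shared sites. Each list had 0 to 3 members, with shares on either side of 6.29%, and these counts are too small to set 1 list apart from another. The same holds for the higher class, with shares from 0 to 22.7% on either side of its 6.68% over all shared sites. It had 0 of 16 sites in gluconeogenesis, 0 of 17 in housekeeping, 2 of 43 in insulin and nutrient signalling and 5 of 22 in amino acid and urea metabolism. No enrichment was tested.

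Of the metabolic lists, gluconeogenesis had 0 members among 16 shared sites (median difference -4.87), and fatty acid and triglyceride synthesis 0 among 46, with 7 of the 46 in the higher class (median -3.30). Fatty acid oxidation and ketogenesis had 2 among 26 (median -4.00), the Tesmin site near Cpt1a and a site 2.5 kb downstream of Acads, the short-chain acyl-CoA dehydrogenase gene (chr5:115107428-115108163). The Acads site lies inside the neighbouring Rpl37rt and had 47.0, 26.8 and 57.5 starved and 63.2, 60.7 and 61.8 fed, a difference of 18.2 that was 8.21 without starved 2. Both sites of this list therefore lean on starved 2. Sterol synthesis and bile acids had 1 of 15, inside Cyp27a1, which encodes a mitochondrial sterol hydroxylase of bile acid synthesis (chr1:74723533-74724469). It had 45.7, 24.5 and 42.5 starved and 57.6, 45.9 and 68.2 fed, a difference of 19.6 that was 11.16 without starved 2, and fed 2 exceeded starved 1 by only 0.2 points. Amino acid and urea metabolism had 1 of 22, inside Cps1, the gene of the first step of the urea cycle (chr1:67143708-67144467), against 5 in the higher class. Its values were 0.6, 13.3 and 8.1 starved and 24.3, 23.5 and 22.1 fed, a difference of 16. Without starved 2 the difference was 24.46, but that setting ranks among 26125 instead of 22131 shared sites, which shifts all percentiles. Cps1 ranked low among the shared sites in both states.

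Nutrient sensing and autophagy gave 3 members. Insulin and nutrient signalling had 1 of 43, inside Rptor, the gene of the raptor subunit of the mTOR complex that senses nutrients (chr11:119618693-119619368). Its percentiles were 56.9, 13.1 and 36.4 starved and 60.4, 73.8 and 64.5 fed, a difference of 30.8 that was 16.64 without starved 2, and starved 1 lay 3.5 points under fed 1. Autophagy had 2 of 22, the first 3.24 kb downstream of Tfeb, the transcription factor of lysosomal genes (chr17:47795252-47796057). That site had 16.6, 35.4 and 41.8 starved and 46.9, 52.5 and 54.9 fed, a difference of 20.2 that was 12.58 without starved 1. The other lay inside Pik3c3, the lipid kinase gene of autophagosome formation (chr18:30311657-30312260), with 5.1, 3.7 and 3.6 starved and 8.6, 20.2 and 13.6 fed. Its difference of 10 points is the smallest of all members.

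The circadian clock list had 3 members among 33 shared sites and 5 sites in the higher class (median difference over the list 1.20). Collection time differed between the groups, and its part in these values cannot be told apart from that of feeding. The member inside Arntl, the gene of the clock activator BMAL1 (chr7:113311600-113312350), had 15.2, 11.1 and 12.7 starved and 40.3, 20 and 19.7 fed, a difference of 13.7 that was 6.84 without fed 1. The one inside Npas2, a paralogue of the clock activator gene Clock (chr1:39253712-39254358), had 1.3, 1.4 and 9.0 starved and 24.3, 13 and 15 fed, a difference of 13.5. The one inside Rora, a nuclear receptor gene that activates Arntl (chr9:68899487-68899974), had 7.6, 10.1 and 5.8 starved and 29.2, 20.4 and 14.4 fed, a difference of 13.5. All 3 are intragenic sites from 59.8 to 246 kb from the start of their gene, at low ranks in both states, and fed 1 was the highest library in each. By contrast the best-ranked shared site of Per2, a repressor of the clock (chr1:91428430-91429186), belonged to the higher class, with 77.2, 78.7 and 79.3 starved and 64.0, 62.4 and 29.5 fed, a difference of -26.4 that was -15.24 without fed 3 and -0.14 by percentile within the whole list.

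Among genes of the CTCF machinery, 1 of 21 shared sites was a member, inside Nipbl, the gene of the cohesin loader (chr15:8382015-8382702). It had 3.6, 12.6 and 1.9 starved and 23.5, 18.5 and 16.1 fed, a difference of 13.3 that was 23.15 without starved 2. Leaving out that library also renews the set of shared sites, so the percentiles of all sites shift with it. Ctcf itself (chr8:105636391-105637927) was in neither class, with 75.7, 75.4 and 70.5 starved and 72.8, 73.7 and 86.3 fed, a difference of 3.7 that turned to -0.61 without fed 3. Without starved 3, fed 1 or fed 2 the difference at Ctcf was 2.02, 6.14 and 5.68, and by percentile within the whole list it was 11.98. None of the 23 shared sites of imprinted genes was a member. The site at H19 (chr7:142580013-142581244) had 35.0, 21.7 and 15.2 starved and 26.6, 14.4 and 12.3 fed, a difference of -6.2 that ranged from -10.62 without fed 1 to -0.72 without starved 1, with -10.51 without starved 3 and -3.47 without fed 3. The H19 groups overlapped. The Hox clusters had 1 member of 17, over the start of Hoxa10 and near Hoxa11, genes of body patterning (chr6:52240125-52240972), with 9.2, 47.1 and 28.5 starved and 47.9, 54.5 and 53.6 fed. Its difference of 23.8 was 13.92 without starved 1, and starved 2 lay 0.8 points under fed 1.

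Hepatocyte identity and plasma protein genes had 1 member of 27 and 5 sites in the higher class. The member lies inside Foxa1, a pioneer transcription factor gene of the liver, 3.52 kb from its start (chr12:57541850-57543326), and had 21.7, 68 and 43.7 starved and 84.3, 87.7 and 84.4 fed. Its fed mean of 85.5 ± 2.0 against a starved mean of 44.5 ± 23.2 gave a difference of 41.0, the largest among the listed genes. The fed libraries spanned 3.5 points, whereas the starved ones spanned 46.3. Stress response had 1 of 15, inside Atf6, a sensor gene of the unfolded protein response (chr1:170777526-170778240), with 14.7, 9.6 and 13.1 starved and 33.0, 28.1 and 31.5 fed, a difference of 18.4. Housekeeping genes had 1 of 17, inside Ywhaz, an adaptor protein gene (chr15:36780776-36781623), with 8.6, 21.5 and 12.9 starved and 39.2, 23.0 and 34.5 fed, a difference of 17.9. Atf6 was tight in both groups, with an SD of 2.6 and 2.5 points, while at Ywhaz starved 2 and fed 2 were 1.5 points apart. Of the marker genes of other liver cells, those of stellate cells and fibroblasts had 1 member of 9, inside Reln (chr5:21986087-21986831), with 18.3, 28.0 and 38.3 starved and 48.7, 41.4 and 50.6 fed, a difference of 18.7. Endothelial markers had 0 of 6, cholangiocyte markers 0 of 1, and markers of Kupffer cells and macrophages had no shared site. Peak lists hold no expression, so the cell types present were not tested.

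The 3 members with the highest mean fed percentile stood near the top of the shared sites in each fed list. A site inside Opalin, a myelin gene (chr19:41071241-41072347), had 78.9, 95.3 and 63.2 starved and 99.8, 99.6 and 98.4 fed, a difference of 20.1 that was 11.96 without starved 3. A site 0.146 kb from the start of Celf5, an RNA-binding protein gene (chr10:81482302-81483388), had 76.7, 90.5 and 85.3 starved and 99.7, 98.6 and 98.5 fed, a difference of 14.8. A site 4.14 kb outside Ppid, a cyclophilin gene (chr3:79586693-79587705), had 74.3, 92.9 and 96.0 starved and 99.4, 98.4 and 98.3 fed, a difference of 10.9 that was 4.09 without starved 1. The fed values spanned 1.4 points at Opalin and 1.0 at Ppid, against 32.1 and 21.7 points for the starved values. With peaks scoring under 30.4, the median over all lists, left out, the differences were 42.30 at Opalin, 32.85 at Celf5 and 23.97 at Ppid. That setting ranks among 9577 shared sites instead of 22131. Its points are therefore on another scale, and the larger values do not show a stronger difference. The members named for the largest differences, at any position or at gene starts, have no value there, nor do those of the gene lists. Each had a starved score under 30.4, as at Rbfox1 with 15.1, 11.7 and 13.2, and so was no longer a shared site.

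The limit of 10 points fell among closely spaced values. Just inside it were sites in Gpr157, a receptor gene (chr4:150092058-150092970), with a difference of 10.07, in a gene-poor stretch of chromosome 6 (chr6:31190409-31191165) with 10.06, and in Pik3c3 with 10.02. The chromosome 6 site had a difference of 6.51 without starved 3. Just outside were non-overlapping sites near Ubl4b (chr3:107550191-107551067) with 9.99, in 4933424G06Rik (chr1:36746235-36747101) with 9.99 and near Wnt7b (chr15:85612678-85613891) with 9.98. The Ubl4b value was 16.92 and that of Wnt7b 3.61 without starved 2. Without peaks scoring under 30.4, where fewer shared sites are ranked, Gpr157 had 22.80 and Wnt7b 22.92. Sites on either side of the limit were alike in their values.

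Position in the genome played no part in the rule. Distances were taken from the middle of a site to the start of the nearest protein-coding gene, or to either end where the annotation used here gives no strand. The median distance of members to a gene start was 19.3 kb, against 15.8 kb for the higher class and 16.1 kb for the other shared sites. Within 1 kb of a start were 136 members (9.78%, exact 95% interval 8.27 to 11.5), 133 of the higher class (9.0%, 7.59 to 10.6) and 2390 others (12.4%, 11.9 to 12.9). More than 50 kb away were 373 members (26.8%, 24.5 to 29.2), 329 of the higher class (22.3%, 20.2 to 24.5) and 4222 others (21.9%, 21.3 to 22.5). Near starts the intervals of members and of the higher class both lay below that of the others. Beyond 50 kb the interval of the members lay above that of the others and met that of the higher class at its edge. More than 100 kb away the shares were 14.5% of members (12.6 to 16.4), 10.4% of the higher class and 10.6% of others (10.2 to 11.1). Neighbouring sites can share a domain, so these intervals are too narrow if sites are not independent.

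**Figure D4:**
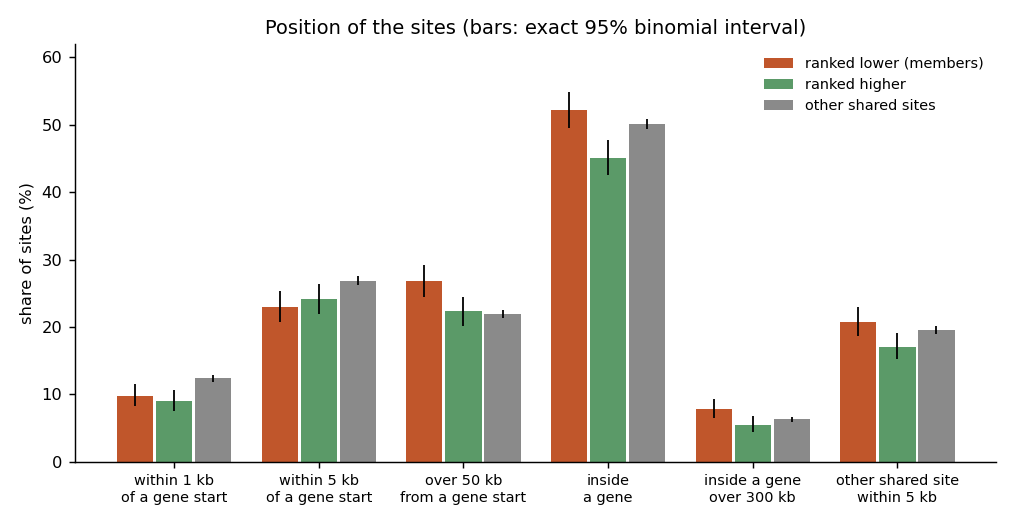
Share of sites (y axis, %) in 6 kinds of position (x axis) for members, sites that ranked higher after starvation and other shared sites, with exact 95% binomial intervals as error bars. Beyond 50 kb from a gene start lay 26.8% of members, 22.3% of the higher class and 21.9% of the others.

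The share beyond 50 kb varied with rank, so it was also read within bands of the mean percentile over the 6 libraries. From the lowest band of 20 points to the highest it was 37.2, 30.9, 26.6, 22.2 and 13.7% for members, on 180, 369, 364, 347 and 131 sites. For the other shared sites it was 25.8, 26.5, 24.6, 19.9 and 12.6%. The members had the higher value in all 5 bands, by most in the lowest one. The higher class had 22.5, 26.8, 25.1, 16.8 and 14.2%. The share within 1 kb of a start was lower in members than in the other shared sites in 4 of the 5 bands, among them 14.5 against 20% in the highest band, and it was slightly higher between the 60th and the 80th percentile, at 10.4 against 10.2%.

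With all ranks pooled, the share of members inside genes, and inside long genes, was above that of the higher class. The middle of a site lay inside a protein-coding gene for 726 members (52.2%, 49.5 to 54.8), 667 of the higher class (45.1%, 42.6 to 47.7) and 9655 others (50.1%, 49.4 to 50.8). The members and the other shared sites have overlapping intervals here, and the higher class lies below both. Genes of over 100 kb held 302 members (21.7%, 19.6 to 24.0), 16.9% of the higher class (15 to 18.9) and 18.7% of the others (18.1 to 19.2). Genes of over 300 kb, such as Rbfox1, held 109 members (7.84%, 6.48 to 9.38), 5.48% of the higher class (4.38 to 6.77) and 6.3% of the others (5.96 to 6.65). The genes holding members had a median length of 72.6 kb, against 67.3 and 64.5 kb for those holding the higher class and the others. For genes of over 300 kb the intervals of the classes overlap. The order inside genes was not the same at all ranks. In the lowest band of 20 points of mean percentile, 52.8% of members lay inside a gene, against 57.5% of the higher class and 56.2% of the others. In the bands above it the members had 55.6, 51.1, 51 and 48.1%, and the higher class 46.8, 39.4, 41.2 and 39.1%. None of these differences was tested.

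By chromosome, the share of members was lowest on the X and the Y. Autosomes had 1380 members among 21671 shared sites (6.37%), between 5.09% on chromosome 10 and 7.97% on chromosome 18. The X chromosome had 11 of 450 (2.44%), while 48 of its sites (10.7%) were in the higher class, against 6.56% of autosomal sites. The Y chromosome had 0 of 10, with 8 of the 10 in the higher class. Sites on the X ranked low in all libraries, with median percentiles of 29.41, 29.26 and 29.13 in starved and 22.62, 24.78 and 23.38 in fed libraries. Since a site with a mean fed percentile under 10 cannot be a member, X and autosomes were set side by side within fed rank. Members made up 1 of 186 X sites (0.538%) and 51 of 3966 autosomal sites (1.29%) below a mean fed percentile of 20. Between 20 and 50 it was 6 of 190 (3.16%) on the X and 470 of 6540 (7.19%) on autosomes, and from 50 up 4 of 74 (5.41%) and 859 of 11165 (7.69%). The X had the lower share in each range, on small counts.

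**Figure D5:**
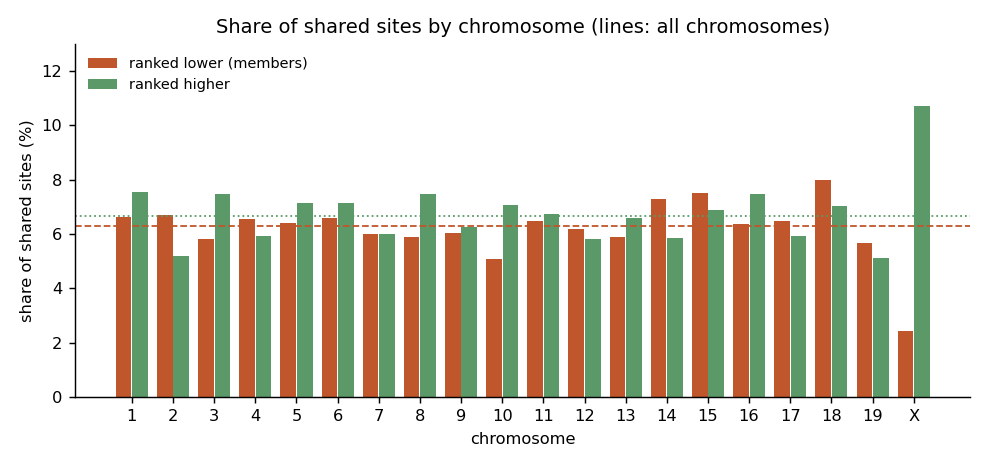
Share of shared sites on each chromosome (y axis, %; x axis, chromosomes 1 to 19 and X) that were members or ranked higher after starvation, with lines at the value over all chromosomes. The X chromosome has the lowest share of members (2.44%) and the highest share of the other class (10.7%) among those drawn, and the Y chromosome with its 10 sites is not drawn.

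The spacing of members was close to that of the other shared sites. A further shared site lay within 5 kb of 289 members (20.8%, 18.7 to 23.0), of 17.1% of the higher class (15.2 to 19.1) and of 19.5% of the others (19 to 20.1), and the nearest shared site was at a median distance of 17.4, 18.9 and 18.0 kb. Of the 316 shared sites found within 5 kb of a member, counted from each member, 32 (10.1%) were members too and 5 (1.58%) were in the higher class. Between 5 and 20 kb the shares were 5.88 and 6.0%, between 20 and 100 kb 6.83 and 5.94%, and between 100 and 500 kb 6.2 and 6.16%. Within 5 kb members thus outnumbered the higher class, and farther out the shares lay close together, with a median difference of 1.217 points in the nearest range and -0.34 in the farthest. Fragments of 1 bound region split over several sites were not told apart from separate sites. Runs of adjacent members within 100 kb, with no other shared site between them, numbered 70 and held 149 members, 7 of them with 3 or more.

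The longest runs had 4 members each, both on chromosome 6. One spanned chr6:127561054-127625965 in Cracr2a, a gene for a calcium-binding regulator of calcium entry, where all 4 shared sites inside the gene were members with differences of 15.01 to 24.69. The other spanned chr6:31155690-31191165, between Klf14 and Mkln1, with differences of 10.06 to 30.13 and the site of 10.06 at the limit among them. In Vps13c, a lipid transfer protein gene of 157 kb, all 3 shared sites were members. Inside Nav2, a gene of neuron navigation of 651 kb, 4 of 17 shared sites were members, and inside the myosin gene Myo18a 3 of 7. No shared site in Cracr2a, Vps13c, Nav2 or Myo18a was in the higher class. Those genes were picked for their number of members, which shapes that absence. In all, 40 genes held at least 2 members. The counts of runs and genes are not given for the higher class, so nothing is read from them about clustering.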

How the data were processed

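CTCF ChIP-seq peak lists of 3 starved and 3 fed mouse liver libraries were used, grouped and numbered by the sample titles. The submitters' processing notes name mm10 as the build and list the tools BWA 0.7.5a, MACS2, HOMER, bedtools 2.17, SAMtools and FastQC without saying what each did. Each deposited list gives position and score per peak and was made per library, not pooled. The score deposited by the authors has the look of a -log10 p-value or q-value, but no label or header says what it is, how deep the libraries were sequenced or how duplicates and inputs were handled. List length moves with depth and enrichment, so the rule uses scores only as percentiles among shared sites within a list. Some alternatives use them otherwise, as a fixed score limit, a scaled log2 score or a percentile within the whole list.

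Gene positions and promoter windows came from RefSeq (GRCm38.p6). Of 21900 protein-coding genes, 17492 had a strand; for the other 4408 either end stood in for the start. No exons or UTRs were used. A site is named by the nearest protein-coding gene within 100 kb and belongs to a gene list when within 5 kb of a listed gene. Named are the 10 members with the largest difference; the 10 largest within 1 kb of a start; up to 4 members per gene list; the 3 with the highest fed percentile; the 3 on either side of the limit; and Cpt1a, H19, Per2 and Ctcf. Intervals are exact Clopper-Pearson 95% intervals. The members and gene lists were chosen with earlier results of these data known. No 2 libraries had identical values. Alternatives were each library left out, a replicate block, other limits, windows, merging and scoring. The site merging was checked against bedtools on the peak lists. The rule was tested on simulated scores with small noise around a common value per site, which is less spread than in these libraries. The work used scipy 1.17.1, numpy 2.4.6 and pandas 2.3.3 in Python 3.11.15, with figures by matplotlib 3.10.9.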

Additional observations from a re-analysis of the deposited data

How the results depend on the processing

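With 3 libraries a group the number of members depends on how many libraries must be separated. Leaving out 1 library gave 2157 to 2658 lower and 2213 to 2730 higher sites, and 88.6 to 95.5% of the members were found again. The share within 1 kb of a start was then 8.44 to 11.7% and the median distance to the nearest other shared site 15.5 to 17.8 kb, with 11.7% and 15.5 kb without starved 2. Same-numbered libraries did not deviate together in rank (correlations 0.01, -0.029 and 0.009). That cannot decide whether the numbers pair the samples, and no label tells. With the replicate block 2411 sites were lower and 2345 higher. A limit of 20 points left 605 and 593. The stricter score of 30.4 left 572 and 631, with 25.1% of the members found again, 14.5% near a start and a distance of 37.3 kb. That limit is the same raw value in all lists. The median member score was 32.72, 19.56 and 33.91 in the starved lists, so members with a starved score under the limit drop out by construction. Among those that drop out are the members named for the largest differences, at any position or at gene starts, and those of the gene lists. Percentiles within the whole list gave 14026 lower and 2 higher sites and a distance of 19.4 kb, as the lists differ in length. Scaled log2 scores, chosen after seeing the data, gave 2243 higher beside 1272 lower sites, so lower sites were 36.2% of those called, against 48.5% by percentile. With 1 peak in each library, 8.07% were near a start at a distance of 20.7 kb. Windows of 0.5, 5 and 20 kb held 6.9, 23 and 51.1% of members, and the core consensus with 1 letter off 14.1%. Of the named non-members, Ctcf changed sign, to -0.61 without fed 3 (up to 6.14 without other libraries) and -5.97 by mean score, and so did the H19 site, to 2.07 by mean score and 30.43 by whole-list percentile. Whole-list percentiles also raised the differences of low-ranked members, such as Pik3c3 to 51.88 and Npas2 to 54.86. Where no construction is named, the cause was not tested. Read depth is unknown, and starvation cannot be told apart from collection time.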
